A study of Mus musculus with 8 samples.

Results

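The subunits of the mTOR complexes were followed as 9 genes, Rictor, Mapkap1, Prr5, Prr5l, Mtor, Mlst8, Deptor, Rptor and Akt1s1, among 24062 gene entries counted in mouse liver. They were chosen by name, as the parts of mTOR complex 1 and mTOR complex 2, and all 9 were among the 13767 genes that passed the filter on low counts. Total RNA depleted of ribosomal RNA was sequenced from livers of lean wild-type C57BL/6 mice, in 8 libraries with 2 in each of 4 groups. Each animal was given 0.1 OD of adenovirus, and its liver was taken 1 week afterwards, following 6 h of food withdrawal. The 3-month-old animals received either lacZ1, a control virus, or shDnajb9, a virus with a short hairpin RNA against Dnajb9, which encodes a co-chaperone of the endoplasmic reticulum. The 4-month-old animals received either lacZ2, the control of the other pair, or shRictor, a virus with a hairpin against Rictor. Age, control virus and pair cannot be told apart. The labels name neither the hairpin sequences nor the liver cells that took up the virus, and they do not state that libraries of 1 group were separate animals, so p-values cover only the spread between these samples.

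mTOR is a protein kinase that works in 2 assemblies. In complex 1 the scaffold raptor, encoded by Rptor, brings substrates of protein synthesis and autophagy to the kinase, and the proline-rich substrate PRAS40, encoded by Akt1s1, restrains it. In complex 2 rictor, SIN1 (encoded by Mapkap1) and the protor proteins (encoded by Prr5 and Prr5l) direct the kinase to Akt, SGK and protein kinase C, and in liver this arm carries insulin signals to glucose and lipid metabolism. The kinase itself, its partner LST8 (encoded by Mlst8) and the inhibitor DEPTOR occur in both.

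The promoters of Rictor, the target of 1 hairpin, and of Mtor and Mlst8, the core genes that fell under the other, are shown to set their base composition side by side. Each is the 250 bases before the RefSeq start on GRCm38.p6, the build that mm10 corresponds to, written 5′ to 3′ on the strand of the gene, with matches to 5 short motifs in capitals. The motifs were the GC box GGGCGG, the CCAAT box CCAAT, the E-box CACGTG, the forkhead motif GTAAACA and the ETS motif CCGGAAG, searched on both strands.
Rictor, chr15:6708131-6708380, plus strand: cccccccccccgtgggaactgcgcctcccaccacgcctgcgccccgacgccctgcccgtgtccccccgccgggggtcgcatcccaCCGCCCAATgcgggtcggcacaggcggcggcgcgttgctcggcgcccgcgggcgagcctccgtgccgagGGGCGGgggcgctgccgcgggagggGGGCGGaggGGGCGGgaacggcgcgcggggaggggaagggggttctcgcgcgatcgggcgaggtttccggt
Mtor, chr4:148448332-148448581, plus strand: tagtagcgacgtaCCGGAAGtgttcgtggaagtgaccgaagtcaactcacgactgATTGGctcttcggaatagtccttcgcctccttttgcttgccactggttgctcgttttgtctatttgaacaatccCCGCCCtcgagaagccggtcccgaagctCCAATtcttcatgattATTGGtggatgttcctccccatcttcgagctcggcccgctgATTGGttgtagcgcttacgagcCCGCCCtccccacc
Mlst8, chr17:24479079-24479328, minus strand: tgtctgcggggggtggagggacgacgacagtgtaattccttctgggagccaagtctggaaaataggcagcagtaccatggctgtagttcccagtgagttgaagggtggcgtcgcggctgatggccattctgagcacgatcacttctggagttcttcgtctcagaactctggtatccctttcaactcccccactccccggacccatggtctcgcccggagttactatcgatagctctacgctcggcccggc
The Rictor window was 81.2% G or C and held 4 GC boxes and 1 CCAAT box, with 1 GC box running into the CCAAT box. The Mtor window was 54.4% G or C and held 4 CCAAT boxes, 2 GC boxes and 1 ETS motif. No match was found in the Mlst8 window, which was 57.6% G or C. Among 32817 RefSeq promoter windows of the same length, 32.7% held a GC box, 33.8% a CCAAT box, 6.02% an E-box, 3.16% a forkhead motif and 6.9% an ETS motif. Of the 12 windows listed, which belong to 8 of the 9 members, 8 held a GC box, 5 a CCAAT box, 0 an E-box, 2 a forkhead motif and 3 an ETS motif. Both windows with a forkhead motif are overlapping windows of Mapkap1 and hold the same match. A match describes the letters of the window only.

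Deptor transcripts rose under both hairpins, by 4.34-fold with shRictor and 1.78-fold with shDnajb9, and Mtor and Mlst8 transcripts fell with shDnajb9, by 3.43-fold and 2.91-fold. Deptor with shRictor and Mlst8 with shDnajb9 passed in all 18 alternative settings, Mtor with shDnajb9 in 15 and Deptor with shDnajb9 in 9. Rictor itself differed from control by -30.2% with its own hairpin and by -27.4% with the Dnajb9 hairpin, and neither difference passed the test. With shDnajb9, 1 of the 9 members rose, 2 fell and 6 did not pass the test, where 24.2% of all tested genes were called by edgeR's quasi-likelihood test at a Benjamini-Hochberg adjusted p under 0.05. With shRictor, 1 member rose, 0 fell and 8 did not pass, where 18.2% of all genes were called. Without lacZ1 replicate 1, shDnajb9 replicate 1 or both libraries that stand apart, described below, fewer of all tested genes were called with shDnajb9. Each of these fits leaves 1 library in a group. The count of members called with shDnajb9 was lower in each of them as well. Of all tested genes, 28.8% were called with shDnajb9 under total count scaling, 24.0% in a 4-library fit of the pair and 23.9% with a replicate block. The count of members called was 2 in each of these. With shRictor it was 1 in all 18 alternatives. The median log2 fold change of the members was 0.14 with shDnajb9 and 0.20 with shRictor, beside -0.05 and -0.02 over all tested genes. In bulk liver a lower value can mean fewer cells of a type or less RNA per cell, and these cannot be told apart.

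**Figure D1:**
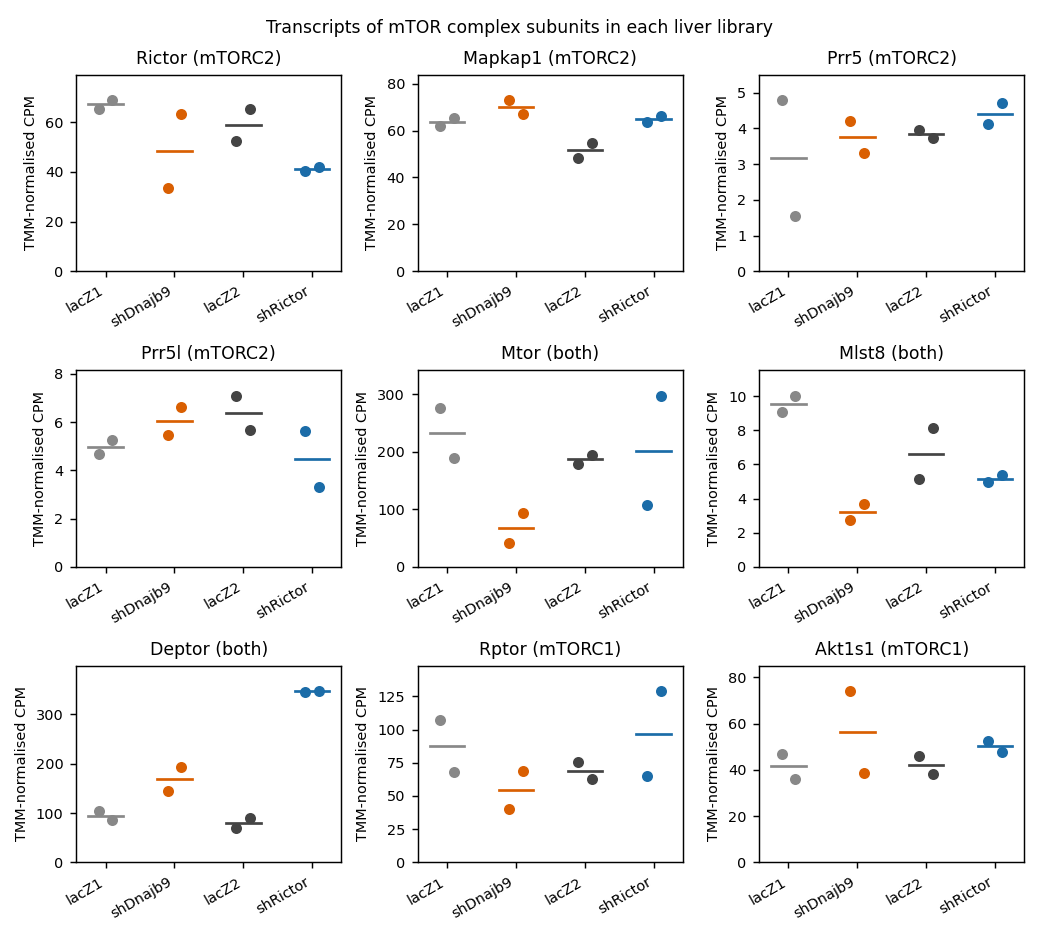
TMM-normalised counts per 1000000 (CPM, vertical axes from 0, each panel on its own scale) of the 9 members in each library (points, replicate 1 left) with the group mean (line). The shRictor libraries stand at 346.6 and 347.1 CPM of Deptor, and the Mtor points of shRictor at 106.8 and 297.4 CPM.

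Library totals ran from 6426164 to 11383532 gene counts, and TMM scaling factors from 0.743 to 1.28. The libraries with the lowest and the highest factor, shDnajb9 replicate 1 and lacZ2 replicate 1, also had the highest shares of the RNase P RNA Rpph1, 4.70% and 4.26%, against 1.11% to 2.03% in the other 6. Calls below that change without both of these libraries are named. Scaling by total count alone moved the median log2 fold change of all tested genes to -0.46 with shDnajb9 and -0.42 with shRictor, so the values below are relative to the TMM scale. Of the targets, Dnajb9 averaged 34.3 ± 5.27 CPM in lacZ1 and 21.2 ± 1.19 CPM in shDnajb9 (SD, n = 2), a log2 difference of -0.70 (SE 0.247, adjusted p 0.056 by edgeR). Under the 18 alternative settings of that fit the adjusted p ran from 0.00115 to 0.253.

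Rictor, on chr15 at 6708379 to 6800401 of GRCm38, was read in every library. It measured 65.4 and 68.8 CPM (lacZ1), 33.3 and 63.4 CPM (shDnajb9), 52.3 and 65.2 CPM (lacZ2) and 40.1 and 42.0 CPM (shRictor). In each pair both hairpin libraries lay below both controls. The 2 shRictor libraries were close together, whereas shDnajb9 replicate 1 was well under replicate 2 and lower than either shRictor library. The log2 fold change was -0.52 with shRictor (95% interval -1.12 to 0.09, adjusted p 0.231 by edgeR) and -0.46 with shDnajb9 (SE 0.282, adjusted p 0.239 by edgeR). The interval for shRictor runs from a value under -1 to one above 0, and a lower Rictor level with its hairpin is not shown by this test.

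Leaving out libraries moved the Rictor value of the Dnajb9 pair most. Without shDnajb9 replicate 2 it was -1.01 on the log2 scale and passed the test (adjusted p 0.0169 by edgeR), and without shDnajb9 replicate 1 it was -0.08. Over all 18 alternatives that adjusted p ran from 0.0169 to 0.878. For shRictor no alternative gave a call: the log2 fold change ran from -0.92 to -0.33 and the adjusted p from 0.0654 to 0.601, with the weakest value without lacZ2 replicate 2. Taken over both hairpins together, a combination of the same libraries, Rictor was at -0.49 (SE 0.199, adjusted p 0.0708 by edgeR). It passed there in 4 of 17 alternatives, with adjusted p from 0.00432, without shDnajb9 replicate 2, to 0.21.

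The partners that define mTOR complex 2 with Rictor did not pass the test in either pair. Mapkap1, whose product SIN1 holds the substrate-binding arm of the complex, measured 61.9 and 65.2 CPM (lacZ1), 72.9 and 67.2 CPM (shDnajb9), 48.4 and 54.8 CPM (lacZ2) and 63.7 and 66.1 CPM (shRictor). Both hairpin libraries lay above both controls in each pair on the TMM scale, with log2 differences of 0.14 and 0.33, which turned to -0.29 and -0.07 with total count scaling. Their adjusted p were 0.653 and 0.32 by edgeR. Mapkap1 was the member with the narrowest range over the 8 libraries, 1.51-fold from lowest to highest.

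The protor genes were read at low depth, with 13 to 54 counts a library for Prr5 and 26 to 67 for Prr5l. Prr5 measured 4.79 and 1.55 CPM (lacZ1), 4.19 and 3.31 CPM (shDnajb9), 3.95 and 3.72 CPM (lacZ2) and 4.12 and 4.70 CPM (shRictor). Its lacZ1 libraries differed by 3.09-fold, more than 99.4% of tested genes in that group. Prr5l measured 4.70 and 5.25 CPM (lacZ1), 5.45 and 6.62 CPM (shDnajb9), 7.09 and 5.67 CPM (lacZ2) and 5.65 and 3.33 CPM (shRictor). It was above its control in both shDnajb9 libraries and below it in both shRictor libraries, with log2 differences of 0.30 and -0.51 and adjusted p of 0.533 and 0.313 by edgeR. The first of these values became -0.11 with total count scaling. For Prr5 the log2 differences were 0.18 and 0.20, which became -0.26 and -0.20 with total count scaling. The 95% intervals of the log2 difference ran from -0.81 to 1.16 for Prr5 and from -0.42 to 1.02 for Prr5l with shDnajb9.

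Mtor, the kinase, on chr4 at 148448611 to 148557683, fell with shDnajb9. The lacZ1 libraries held 275.7 and 188.8 CPM and the shDnajb9 libraries 41.5 and 93.2 CPM, so that the higher hairpin library had less than any control library. The log2 fold change was -1.78 (SE 0.468, adjusted p 0.0174 by edgeR). Leaving out lacZ1 replicate 1 ended the call, at -1.50 on the log2 scale with an adjusted p of 0.152. So did leaving out shDnajb9 replicate 1 (-1.31, p 0.155 after adjustment) or both libraries that stand apart (-1.32, 0.185), and the adjusted p over all 18 alternatives ran from 1.13e-06 to 0.185.

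In the other pair Mtor showed no common direction. The lacZ2 libraries held 179.5 and 194.3 CPM and the shRictor libraries 106.8 and 297.4 CPM, 1 hairpin library below and 1 above both controls. These 2 shRictor libraries differed by 2.79-fold, more than 99.1% of tested genes in that group. The log2 fold change was 0.11 (95% interval -0.86 to 1.09, adjusted p 0.892 by edgeR) and changed sign with total count scaling (-0.30) and without shRictor replicate 2 (-0.80). Mtor had the widest range of the members, 7.17-fold over the 8 libraries.

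Mlst8, the small beta-propeller partner that stabilises the kinase domain, fell with shDnajb9 as well. It measured 9.04 and 10.02 CPM (lacZ1), 2.73 and 3.65 CPM (shDnajb9), 5.12 and 8.12 CPM (lacZ2) and 4.94 and 5.38 CPM (shRictor). The shDnajb9 libraries held the lowest values of the series and rest on 13 and 32 counts. The log2 fold change was -1.54 (SE 0.332, adjusted p 0.00621 by edgeR), and the call held under all 18 alternatives, from -1.94 to -1.31. With shRictor the libraries overlapped the controls, at -0.37 (95% interval -1.03 to 0.30, adjusted p 0.454 by edgeR), or 0.03 without lacZ2 replicate 2. Of the Mlst8 exons on chr17 (24473551 to 24479078), 22.5% lie over Bricd5 on the other strand and 16.4% of its 50-base stretches also occur there. The strand setting of the counting is not given in the sources used here, so the Mlst8 count is uncertain to that extent. Bricd5 was listed at 0 counts in all 8 libraries, which does not settle the strand setting.

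Deptor, the inhibitor that binds the kinase in both complexes, was the 1 member called in both pairs. The lacZ2 libraries held 69.0 and 90.8 CPM and the shRictor libraries 346.6 and 347.1 CPM. The shRictor libraries were nearly equal, closer than all but 0.298% of tested genes in that group, and far above every other library. The log2 fold change was 2.12 (SE 0.285, adjusted p 0.000414 by edgeR), and it passed under all 18 alternatives, from 1.72 with total count scaling to 2.35 without lacZ2 replicate 2. The gene lies on chr15 at 55112317 to 55259271, and 3.41% of its exon bases overlap the other-strand gene Gm9920.

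With shDnajb9, Deptor stood at 144.2 and 192.7 CPM, against 103.5 and 85.9 CPM in lacZ1. Both hairpin libraries were above both controls and below both shRictor libraries. The log2 fold change was 0.83 (SE 0.277, adjusted p 0.0442 by edgeR), close to the threshold. It passed in 9 of 18 alternatives, with an adjusted p between 0.00553 and 0.261. The call was lost with total count scaling (0.42, adjusted p 0.261), in a fit to the 4 libraries of the pair (0.84, adjusted p 0.0501), and on leaving out either library of lacZ1, of shDnajb9 or of shRictor (0.60 to 1.03). Without both libraries that stand apart it was 1.02 (adjusted p 0.0291).

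**Figure D2:**
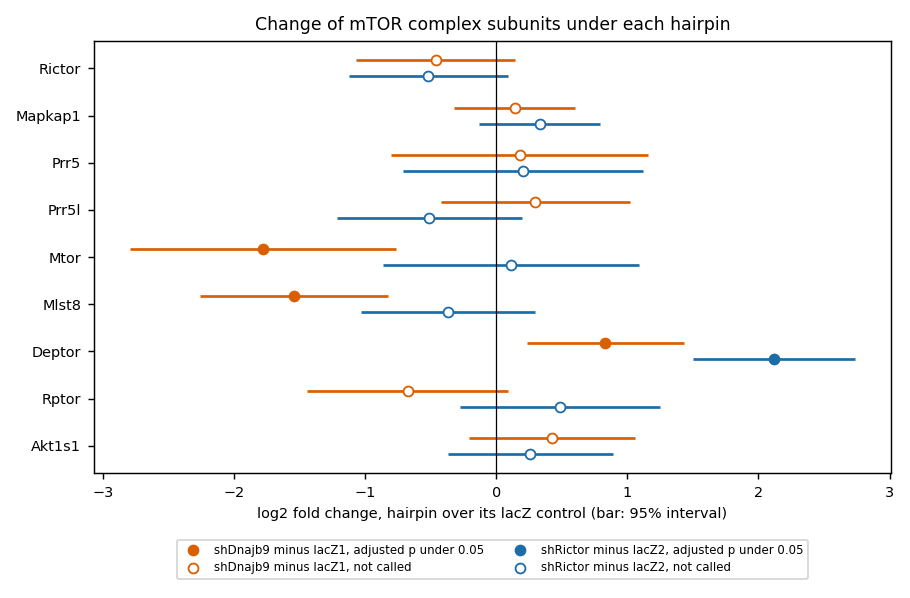
Log2 fold change (horizontal axis, TMM scale) of each member under shDnajb9 against lacZ1 (orange) and shRictor against lacZ2 (blue), with 95% intervals and filled points for an adjusted p under 0.05. Deptor is filled for both hairpins, at 0.83 and 2.12, and Mtor (-1.78) and Mlst8 (-1.54) for shDnajb9.

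Rptor and Akt1s1, the members found in complex 1 but not in complex 2, did not pass the test. Rptor, encoding the scaffold raptor, measured 106.9 and 68.0 CPM (lacZ1), 40.5 and 68.5 CPM (shDnajb9), 75.4 and 63.0 CPM (lacZ2) and 65.1 and 128.8 CPM (shRictor). Hairpin and control libraries overlapped in both pairs. The log2 differences were -0.68 with shDnajb9 and 0.49 with shRictor (adjusted p 0.176 and 0.38 by edgeR), and the second was -0.08 without shRictor replicate 2. The first ran from -1.12 without shDnajb9 replicate 2 to -0.33 without lacZ1 replicate 1, and was -0.35 without shDnajb9 replicate 1 or without both libraries that stand apart and -0.02 with the length and GC correction. The shRictor libraries differed by 1.98-fold for Rptor, more than 95.1% of tested genes, with the higher value in replicate 2, the library that was also higher for Mtor.

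Akt1s1, encoding PRAS40, measured 46.8 and 36.3 CPM (lacZ1), 74.0 and 38.5 CPM (shDnajb9), 45.8 and 38.2 CPM (lacZ2) and 52.5 and 47.9 CPM (shRictor). Only shDnajb9 replicate 1 stood far from the rest. The log2 differences were 0.43 and 0.26 (adjusted p 0.297 and 0.594 by edgeR), and they became -0.05 and -0.15 with total count scaling. Without shDnajb9 replicate 2 the first was 0.83 and passed (adjusted p 0.0329 by edgeR), and without replicate 1 it was -0.11, over a range of adjusted p from 0.0329 to 0.91.

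**Figure D3:**
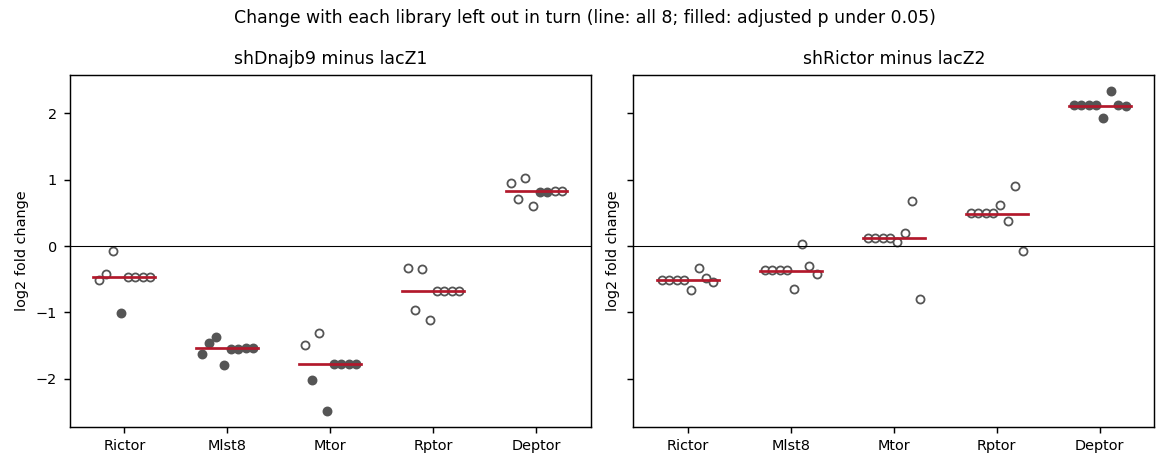
Log2 fold change (vertical axis) of 5 members when each of the 8 libraries is left out in turn (points, filled for an adjusted p under 0.05), with the value from all 8 as a line. Deptor with shRictor stays between 1.93 and 2.35 and Mlst8 with shDnajb9 between -1.80 and -1.37, while Mtor with shRictor spans -0.80 to 0.68.

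The responses to the hairpins were compared directly in a test of their difference. No member passed (0 of 9, with 0 by DESeq2 and 0 by limma-voom), where 0.00726% of all genes were called by edgeR. At an unadjusted p under 0.05 there were 4 members, Deptor, Mtor, Mlst8 and Rptor, among 1495 of all genes. Each of these was higher in the Rictor contrast: by 1.29 on the log2 scale for Deptor (SE 0.39, adjusted p 0.394 by edgeR), 1.89 for Mtor (adjusted p 0.409), 1.17 for Mlst8 (adjusted p 0.431) and 1.17 for Rptor (adjusted p 0.445). With no low-count filter the Mtor difference passed, at 1.90 (adjusted p 0.00379), while over 17 alternatives its adjusted p reached 0.999. Without the filter, 2.13% of all genes were called in the test of the difference. For Rictor the difference was -0.06 (95% interval -0.91 to 0.80, adjusted p 0.97 by edgeR). Without both libraries that stand apart the Rictor difference was -0.58 and that of Mlst8 0.73 (adjusted p 0.879 and 0.904 by edgeR). An interval as wide as that of Rictor does not show that it responded alike to both.

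Over both hairpins together, Deptor was at 1.47 (SE 0.198, adjusted p 0.000121 by edgeR) and Mlst8 at -0.95 (SE 0.227, adjusted p 0.00577), and the other 7 members did not pass, where 36.2% of all genes were called. Mtor was at -0.83 (adjusted p 0.0606) and passed in 7 of 17 alternatives, with adjusted p from 0.00125 to 0.273. Between the control groups, which differ in age and in the virus named, 0 members were called by edgeR, DESeq2 or limma-voom and 0 had an unadjusted p under 0.05. Over all genes, 0% were called there by edgeR, with 169 genes at an unadjusted p under 0.05. The members' log2 differences, lacZ2 minus lacZ1, ran from -0.51 for Mlst8 to 0.36 for Prr5l.

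Ratios of counts within a library do not depend on scaling between libraries. The ratio of Deptor to Mtor, added after the values were seen, was 0.376 and 0.455 (lacZ1), 0.384 and 0.467 (lacZ2), 3.47 and 2.07 (shDnajb9), and 3.25 and 1.17 (shRictor). It lay below 1 in all 4 control libraries and above 1 in all 4 hairpin libraries, for transcripts of nearly equal length (8547 and 8564 bases). On the log2 scale the group means were higher by 2.70 with shDnajb9 and 2.20 with shRictor. The second was 1.46 without shRictor replicate 1 and 2.94 without shRictor replicate 2. In the Dnajb9 pair Deptor was higher and Mtor lower in both libraries, whereas in the Rictor pair Deptor was higher in both libraries and Mtor lower in 1 of 2.

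The ratio of Rictor to Mtor was 0.237 and 0.364 (lacZ1), 0.803 and 0.68 (shDnajb9), 0.292 and 0.335 (lacZ2), and 0.376 and 0.141 (shRictor). Its log2 mean was 1.33 higher with shDnajb9, where both hairpin libraries were above both controls. With shRictor it was -0.44 relative to lacZ2, with 1 library above and 1 below the controls, and 0.27 without shRictor replicate 2. The ratio of Rictor to Rptor was lower with shRictor in both libraries, 0.617 and 0.326 against 0.694 and 1.03 in lacZ2. The log2 ratio of Mlst8 to Mtor differed by 0.28 and -0.25 in the 2 pairs, with overlapping libraries.

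**Figure D4:**
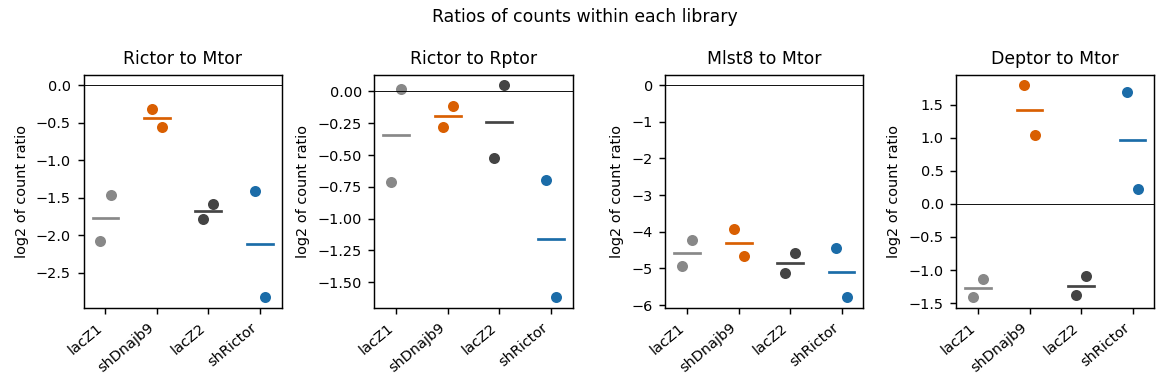
Log2 of the ratio of raw counts of 2 members within each library (points) with group means (lines), 1 panel a ratio, each on its own scale. For Deptor to Mtor the 4 lacZ libraries lie between -1.41 and -1.10 and the 4 hairpin libraries between 0.22 and 1.80.

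Levels of the members were ordered per kilobase of the longest transcript over the 4 lacZ libraries. The median CPM per kilobase was 22.4 for Mtor, 19.0 for Akt1s1, 18.7 for Mapkap1, 10.9 for Rptor, 10.3 for Deptor and 7.01 for Rictor. Below these stood Mlst8 at 2.23, Prr5 at 2.10 and Prr5l at 1.27 CPM per kilobase. Among neighbours in this order, only Deptor and Rictor, and Rictor and Mlst8, did not overlap between libraries. With the length of all exons joined, Akt1s1 and Mapkap1, Rptor and Deptor, and Mlst8 and Prr5 changed places.

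Genes whose levels ran most like Rictor over the 8 libraries, by Pearson's r of log2 CPM among 11682 candidates, were Ctla2b (0.987), Ly6c2 (0.982), Cntrl (0.973), Pyhin1 (0.972) and Vps33b (0.968). These 8 points share group, depth and scaling, and the values are a description. Cntrl, which encodes a centrosomal protein, shows the pattern at a similar level: 87.8 and 81.8 CPM (lacZ1), 40.04 and 77.6 CPM (shDnajb9), 57.5 and 77.7 CPM (lacZ2), and 43.2 and 53.7 CPM (shRictor). As for Rictor, shDnajb9 replicate 1 was the lowest library. Ctla2b and Ly6c2 have close paralogs with which reads can be shared, so their counts are uncertain. Among the members, Akt1s1 ran most opposite to Rictor (r = -0.89 over 8 libraries), and Mtor ran with Rptor (r = 0.87) and Mlst8 (r = 0.79).

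The wider pathway was described by 73 further genes, of which 71 were tested. With shDnajb9, 8 rose and 5 fell, 18.3% of those tested, and with shRictor 7 rose and 3 fell, 14.1%, both under the shares over all genes. Median log2 fold changes were 0.01 and 0.16. With shDnajb9 the calls fell furthest without both libraries that stand apart, shDnajb9 replicate 1 or lacZ1 replicate 1. With shRictor they fell furthest without either lacZ2 library or shRictor replicate 2. Each of these fits leaves 1 library in a group, and fewer of all genes were called there too. One entry of the list, BC055324, stood there in error for BC048403, a subunit of the KICSTOR complex. With that exchange 8 rose and 4 fell with shDnajb9, and the counts with shRictor did not change.

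Upstream of complex 1, the GTPase group around Rheb and the tuberous sclerosis proteins had no call among 4 tested genes in either pair by edgeR. At an unadjusted p under 0.05 there was 1 with shDnajb9, where DESeq2 also called 1 and limma-voom 0, and 0 with shRictor, where both called 0. Amino acid sensing at the lysosome had 5 of 29 higher and 3 lower with shDnajb9, or 2 lower after the exchange, and 1 higher with shRictor. Before the exchange these are 27.6% and 3.45% of the group, beside 24.2% and 18.2% of all genes. Lamtor2 and Lamtor4, subunits of the Ragulator that anchors mTOR complex 1 to the lysosome, rose with shDnajb9. Lamtor2 went from 29.5 and 26.7 CPM to 84.5 and 50.7 CPM, with 1.26 as its log2 fold change (adjusted p 0.00521 by edgeR, SE 0.263), and Lamtor4 from 34.3 and 41.9 CPM to 108.4 and 75.1 CPM (1.27, SE 0.266, adjusted p 0.00539). Sesn2, a leucine sensor that restrains complex 1, fell from 49.5 and 34.0 CPM to 14.9 and 18.4 CPM (-1.32, SE 0.281, adjusted p 0.00583). Without lacZ1 replicate 1 the calls of Lamtor4 (1.10, adjusted p 0.0785) and Sesn2 (-1.04, adjusted p 0.0743) were lost. Over the 18 alternatives their adjusted p reached from 0.000112 and 3.44e-05 up to these values.

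With shRictor the 1 call of this group was Fnip2, a folliculin partner, which went from 61.5 and 67.5 CPM to 117.8 and 147.1 CPM. Its log2 fold change was 1.04 (SE 0.263, adjusted p 0.016 by edgeR), and the call held in 14 of 18 alternatives. It was lost without either lacZ2 library or shRictor replicate 2 (adjusted p 0.0555 to 0.118) and with total count scaling (0.63, adjusted p 0.138, in a range from 0.00251). With shDnajb9 Fnip2 was at 0.67 (adjusted p 0.0767 by edgeR) and passed in 3 of 18 alternatives, among them without both libraries that stand apart (0.95, adjusted p 0.0331, in a range from 0.0034 to 0.492).

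Of the energy and stress inputs, Ddit4l, an inhibitor of mTOR signalling related to REDD1, fell in both pairs. It was the 1 call among 5 genes in each, 20% beside 24.2% and 18.2% of all genes. It went from 11.4 and 16.3 CPM to 1.89 and 0.913 CPM with shDnajb9, and from 14.7 and 14.6 CPM to 1.65 and 1.27 CPM with shRictor. The 4 hairpin libraries did not come near any control. The log2 fold changes were -3.41 (SE 0.385, adjusted p 0.00013 by edgeR) and -3.33 (SE 0.354, adjusted p 0.000119), and both calls held in all 18 alternatives. The assembly chaperones of the TTT and RUVBL group had no call among 5 genes by edgeR, DESeq2 or limma-voom, with 1 at an unadjusted p under 0.05 in each pair.

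Effectors of complex 1 had 2 of 17 higher and 0 lower with shDnajb9, and 5 higher and 1 lower with shRictor. These are 11.8% and 35.3% of the group, beside 24.2% and 18.2% of all genes. Eif4ebp3, a repressor of cap-dependent translation, rose in both pairs. It went from 8.86 and 11.1 CPM to 23.3 and 29.3 CPM with shDnajb9 (1.41, SE 0.259, adjusted p 0.00259 by edgeR) and from 6.28 and 7.36 CPM to 28.1 and 21.7 CPM with shRictor (1.86, SE 0.264, adjusted p 0.000567). Both calls held in all 18 alternatives. Pdcd4, an inhibitor of translation initiation that S6 kinase marks for degradation, rose by 1.18 and 1.17 on the log2 scale (adjusted p 0.00449 and 0.00494 by edgeR). These calls were lost by little without lacZ1 replicate 2 and without lacZ2 replicate 1 (adjusted p 0.0544 and 0.0548), the highest of their 18 alternatives each.

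Ulk1, a kinase that starts autophagy, rose with shRictor, from 82.3 and 59.2 CPM to 143.4 and 241.2 CPM (1.44, SE 0.382, adjusted p 0.0207 by edgeR). In lacZ1 and shDnajb9 its libraries overlapped, at 114.6 and 77.0 CPM and 55.1 and 119.4 CPM. The call was lost with total count scaling (1.02, adjusted p 0.121), without either lacZ2 library and without shRictor replicate 2, with an adjusted p of up to 0.151 from a lowest of 3.47e-05. The other calls in this group, named after their values were seen, were rises of Eif4ebp2 and Lpin1 and a fall of Grb10.

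The group of complex 2 effectors and an inhibitor had 1 of 11 genes higher and 1 lower in each pair. That is 18.2% of the group, beside 24.2% of all genes with shDnajb9 and 18.2% with shRictor. With shDnajb9, Prkca, a protein kinase C that complex 2 phosphorylates, fell from 35.3 and 27.7 CPM to 6.498 and 10.8 CPM (-1.83, SE 0.282, adjusted p 0.000872 by edgeR). That call held in all 18 alternatives. Akt2, the main Akt of liver, rose from 107.9 and 104.8 CPM to 236.7 and 144.8 CPM (0.84, adjusted p 0.0435 by edgeR). It passed in 9 of 18 alternatives, with adjusted p from 0.00741 to 0.333, and was 0.45 without shDnajb9 replicate 1. It was also lost without either lacZ1 library, lacZ2 replicate 2 or either shRictor library (adjusted p 0.0501 to 0.222), with total count scaling, without both libraries that stand apart and in a fit to the 4 libraries of the pair. With shRictor both genes had the same sign, Prkca at -0.64 and Akt2 at 0.68 (adjusted p 0.111 and 0.108 by edgeR), and each passed in 2 of 18 alternatives, with adjusted p from 0.0342 to 0.42 and from 0.0471 to 0.427.

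With shRictor, Sgk3, a kinase related to Akt, fell from 34.2 and 25.9 CPM to 17.8 and 15.8 CPM (-0.84, SE 0.235, adjusted p 0.0264 by edgeR). Foxo1, the transcription factor that Akt keeps out of the nucleus, rose from 39.5 and 35.0 CPM to 56.9 and 86.97 CPM (0.95, SE 0.278, adjusted p 0.0316 by edgeR). Each call held in 14 of 18 alternatives. Sgk3 was lost without lacZ2 replicate 1, without either shRictor library and without both libraries that stand apart (adjusted p up to 0.206, from 0.00764), and Foxo1 without either lacZ2 library, shRictor replicate 2 or with total count scaling (0.53; adjusted p up to 0.261, from 0.0052). Differences between the hairpins did not pass for any pathway gene (0 of 71 by edgeR, DESeq2 and limma-voom, 13 at an unadjusted p under 0.05), so calls in only 1 pair are not shown to differ. Over all 13767 tested genes, 0.00726% were called in that test by edgeR, and 1495 had an unadjusted p under 0.05.

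**Figure D5:**
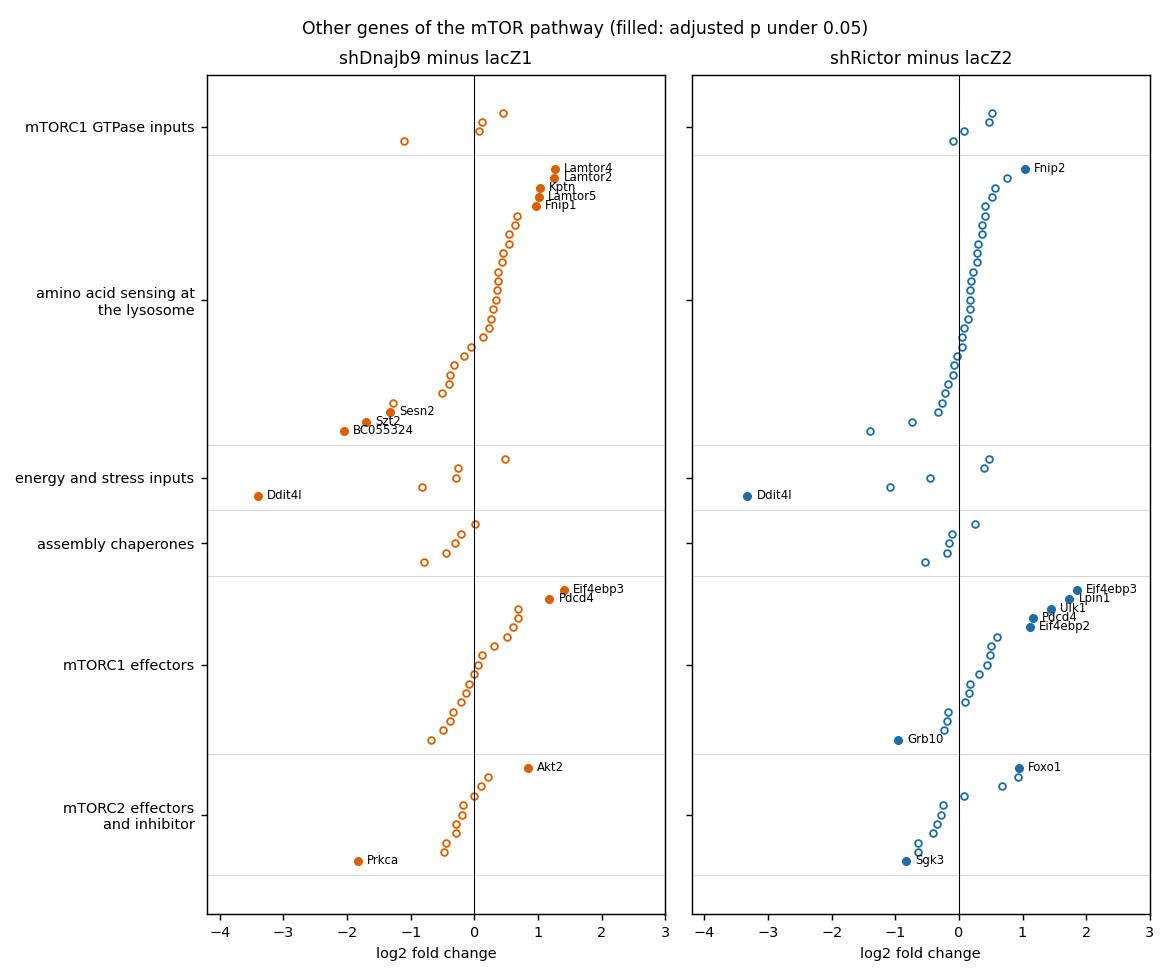
Log2 fold change (horizontal axes) of the 71 tested pathway genes under shDnajb9 against lacZ1 (left) and shRictor against lacZ2 (right), 1 row a gene within its group, filled and named for an adjusted p under 0.05. Ddit4l lies at -3.41 and -3.33, and Eif4ebp3 at 1.41 and 1.86.

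Sums of markers did not overlap between hairpin and control libraries for several cell types. The share of all tested genes that separate in this way is not given here. With 2 libraries a group, the separations are a description only. Endothelial sums overlapped in both pairs, B cell sums in the Dnajb9 pair and neutrophil sums in the Rictor pair. Over all tested genes, 11.6% rose and 12.6% fell with shDnajb9, and 7.31% rose and 10.9% fell with shRictor. Summed CPM of 8 hepatocyte markers was 39390 to 53603 in lacZ1, 62981 to 81246 in shDnajb9, 21586 to 41942 in lacZ2 and 61896 to 67240 in shRictor, higher in all hairpin libraries than in their controls, with 4 and 3 of 8 markers called as risers. The 6 stellate and fibroblast markers summed to 456 to 512 and 431 to 437 CPM in the controls and to 228 to 298 and 239 to 281 CPM under shDnajb9 and shRictor, with 3 and 1 called as fallers. Kupffer cell markers were at 1142 to 1322 and 1087 to 1259 CPM against 929 to 1116 and 629 to 817 CPM. Of these 6 markers, 1 was called as a faller in each pair. The sum of cholangiocyte markers was lower in every hairpin library than in its controls. It was 88.2 to 95.8 CPM in lacZ1 and 28.3 to 54.5 CPM in shDnajb9, and 59.3 to 111.04 CPM in lacZ2 and 41.1 to 58.8 CPM in shRictor. Of 4 tested markers, 2 and 0 were called as fallers. This sum is mostly Spp1 (23.9 to 104.4 CPM over the libraries). Krt7, Krt19, Epcam and Sox9 reached at most 1.05, 1.68, 2.00 and 6.05 CPM. Endothelial markers, at 318.3 to 447.3 CPM, and B cell markers, at 5.23 to 7.97 CPM, had 1 and 0 called as risers with shDnajb9 and no call with shRictor. The sum of T and NK cell markers was lower in every hairpin library (6.92 to 11.3 CPM) than in its controls (15.2 to 28.3 CPM). Of 5 tested markers, 1 was called as a faller in each pair. Neutrophil markers were at 5.60 to 24.6 and 3.64 to 13.1 CPM in the controls and at 0.419 to 0.571 CPM with shDnajb9 and 1.53 to 4.30 CPM with shRictor, with 4 and 1 called as fallers. Of the 4 erythroid markers, Hba-a1, Hbb-bs and Hbb-bt were listed at 0 in all 8 libraries, and the remaining one, Alas2, rose in both pairs, from 40.9 to 48.5 CPM in lacZ1 to 259 to 593 CPM in shDnajb9, and from 44.2 to 45.7 CPM in lacZ2 to 123 to 154 CPM in shRictor. The part of these shifts in the values of Deptor, Mtor, Mlst8 and the pathway genes was not tested.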

How the data were processed

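The authors deposited raw counts per gene symbol. Reads were trimmed with cutadapt and counted by HTSeq on build mm10, per the submitters' processing notes; the aligner, versions, annotation and strand setting are not given in the sources used here. The 5 HTSeq classes without a gene took 48.4% to 63.7% of all counts and were left out. In R 4.3.3, edgeR 4.0.16 (TMM, filterByExpr at a minimum count of 10, robust quasi-likelihood F test) fitted 4 group means to all 8 libraries, with adjustment over 13767 genes and 4 residual degrees of freedom. The procedure was tested on simulated data. DESeq2 1.42.0, limma 3.58.1 (voom), other scalings and filters, a replicate block, a length and GC correction and leaving out each library were alternatives. Lengths and positions came from GENCODE M21, which matched 98.2% of entries. The members and lists were chosen with earlier results of these data known. All members and Dnajb9 were named, up to 3 called pathway genes a group and pair with the smallest adjusted p, and the 5 genes most like Rictor. Marker Adgre1 was read as Emr1. Replicate libraries differed by more than counting noise (chi-square per degree of freedom 18.2 to 52.0).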

Additional observations from a re-analysis of the deposited data

Results flagged for a closer look

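The share of all HTSeq counts without a unique alignment, which enters none of the comparisons above, was higher in the hairpin libraries than in any control. It was 41.3% in shDnajb9 replicate 1, 42.0% in shDnajb9 replicate 2, 32.7% in shRictor replicate 1 and 26.7% in shRictor replicate 2, against 22.9% to 24.9% in the 4 lacZ libraries. Its part in the values of the mTOR complex subunits was not tested.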

How the results depend on the processing

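The calls of Deptor with shRictor and Mlst8 with shDnajb9 kept their direction and passed in every alternative run. Of 945 values of single genes under alternatives, 850 kept direction and call status, 41 lost a call, 27 gained one and 27 changed sign. Only values called in the main fit could lose a call, and the 850 include values called in neither fit. With total count scaling the sign changed for Mapkap1 (-0.29 with shDnajb9, -0.070 with shRictor), Prr5 (-0.26, -0.20), Akt1s1 (-0.049, -0.15), Prr5l with shDnajb9 (-0.11), and Mtor (-0.30), Lamtor2 (-0.23) and Lamtor4 (-0.051) with shRictor. With limma-voom it changed for Mtor with shRictor (-0.086) and the Rictor difference (0.028), and with the length and GC correction for Ulk1 with shDnajb9 (0.38). Without both libraries that stand apart, an alternative chosen after seeing the data, it changed for Akt1s1 (-0.11) and Ulk1 (0.32) with shDnajb9.

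The labels give same-numbered libraries of different groups only the number in common and do not say whether they were handled together. Correlations of their deviations between groups ran from -0.33 to 0.32. With the replicate block Mtor with shRictor was -0.0077 and the Rictor difference 0.0088, Deptor with shDnajb9 lost its call (0.82, adjusted p 0.0559), and 4 members in place of 2 were called over both hairpins, Rictor (-0.51, adjusted p 0.0461) among them. Over both hairpins 4 were also called with total count scaling and with no low-count filter. All genes called there came to 36.2% in the main fit and 35.3% with the block. They came to 44.5% with total count scaling and 29.9% with no filter. Without the filter 1 member was called in the difference in place of 0, beside 2.13% of all genes in place of 0.00726%. Pathway calls with shDnajb9 were 13, and 8 without both libraries that stand apart; with shRictor they were 10, and 16 with the length and GC correction.

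Leaving out each library in turn gave 1 to 4 members called with shDnajb9, 2 to 5 over both hairpins, 6 to 18 pathway calls with shDnajb9 and 3 to 12 with shRictor. The fewest and the most calls in each range were reached where the fewest and the most of all tested genes were called. Each of these fits leaves 1 library in a group, so the ranges are not shown to be particular to the members or pathway genes. The sign of the Rictor difference changed, over -0.44 to 0.50. With shRictor signs changed for Mlst8 (-0.65 to 0.031), Mtor (-0.80 to 0.68) and Rptor (-0.083 to 0.90). With shDnajb9 they changed for Prr5 (-0.38 to 1.22), Akt1s1 (-0.11 to 0.83) and Ulk1 (-0.80 to 0.32). The log2 ratio of Deptor to Mtor, added after the values were seen, ran from 2.32 to 3.07 with shDnajb9 and from 1.46 to 2.94 with shRictor. Its hairpin and control libraries did not overlap, so leaving out 1 library could not change its sign. Signs also changed for the log2 ratios of Rictor to Mtor (-1.15 to 0.27) and Mlst8 to Mtor (-0.93 to 0.42) with shRictor, and Rictor to Rptor (-0.21 to 0.51) and Mlst8 to Mtor (-0.089 to 0.65) with shDnajb9. The cause of these changes was not tested. Prr5 and Prr5l rest on 13 to 67 counts a library; standard errors were 0.455 for Prr5 and 0.468 for Mtor, which had 198 to 3110 counts, with shDnajb9.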
